A study of Homo sapiens with 8 samples.

Results

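The genes described here encode the LC3 and GABARAP proteins (MAP1LC3A, MAP1LC3B, GABARAP, GABARAPL1 and GABARAPL2) and 5 autophagy receptors (SQSTM1, NBR1, OPTN, TAX1BP1 and CALCOCO2). They were picked out by gene symbol, with earlier results of these data known, and make up 10 of the 65975 gene identifiers in the expression table. All 10 averaged 1 FPKM or more (fragments per kilobase of transcript, scaled to the number of mapped reads) over the libraries, as did 17460 genes in all. RNA-seq was performed on A673, an established Ewing Sarcoma cell line, to find out how its transcriptome responds to JIB-04, a pan-Jumonji histone demethylase inhibitor. Cells received 2 μM JIB-04 for 36 hours in 4 samples, and the other 4 samples received vehicle (DMSO) only. Every library comes from this 1 cell line, at this 1 dose and time. The study's methods say that each group was treated in quadruplicate. They do not say whether the samples of a group were separate cultures. The p-values therefore cover the spread among these 8 samples alone, which may be technical.

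LC3 and GABARAP proteins are small, ubiquitin-like proteins that are attached to the lipid phosphatidylethanolamine on the growing autophagosome membrane. They take part in the growth and closure of that membrane, and receptors bind them through a short LC3-interacting region while holding ubiquitin-tagged or damaged cargo. In this way cargo such as protein aggregates, damaged mitochondria and invading bacteria is enclosed and carried to the lysosome. A receptor is itself degraded with its cargo, and the lipidated form of an LC3 protein is made after translation, so that RNA levels measure neither autophagic flux nor lipidation.

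FPKM values summed to between 1.346e+06 and 1.370e+06 in the vehicle libraries and between 1.175e+06 and 1.237e+06 in the JIB-04 libraries. Genes of the mitochondrial genome took 9.99% to 10.6% of that sum in the vehicle libraries, and 4.59% to 5.54% in those treated with JIB-04. How many reads lie behind each library is unknown here. Relative to vehicle replicate 1, steps between low FPKM values gave a depth of 0.822 to 0.954 in the other vehicle libraries and of 0.766 to 0.959 in the JIB-04 libraries. All 6 Ewing Sarcoma markers examined (CD99, NKX2-2, NR0B1, STEAP1, FLI1 and CCND1) were expressed in every library, with a summed level of 2941 to 3217 FPKM in vehicle and of 1745 to 2200 FPKM with JIB-04. Within that sum CD99 stood at 1135 to 1198 FPKM in vehicle but at 566 to 622 FPKM after treatment, whereas FLI1 stood at 58.4 to 62.4 and at 69.5 to 74.4 FPKM, and NR0B1 overlapped between groups. Of 10 markers of epithelial, blood, endothelial, neuronal and muscle cells, 2 reached 1 FPKM in any library (SNAP25, a synaptic protein, and PECAM1, an endothelial adhesion molecule), and MYOG, a muscle regulator, was at 0 in all. Their summed level was 5.17 to 5.36 FPKM in vehicle and 16.0 to 19.7 FPKM with JIB-04, of which SNAP25 accounted for 3.85 to 4.29 and for 14.1 to 17.3 FPKM. Its part in the changes of the 10 genes was not tested. In bulk RNA, fewer cells expressing a gene and less of its RNA per cell cannot be told apart.

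Since MAP1LC3B and GABARAPL1 have near copies elsewhere in the genome, the start of each coding sequence is shown beside that of its copy (GENCODE release 29 transcripts, GRCh38). Each stretch is coding bases 1 to 120, counted from the A of the start codon, in lower case with the bases that differ within the pair in capitals.
MAP1LC3B: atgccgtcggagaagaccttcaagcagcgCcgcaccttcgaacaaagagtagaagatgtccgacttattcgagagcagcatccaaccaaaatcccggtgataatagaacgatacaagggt
MAP1LC3B2: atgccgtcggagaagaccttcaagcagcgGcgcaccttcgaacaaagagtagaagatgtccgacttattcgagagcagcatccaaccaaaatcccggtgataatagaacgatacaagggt
GABARAPL1: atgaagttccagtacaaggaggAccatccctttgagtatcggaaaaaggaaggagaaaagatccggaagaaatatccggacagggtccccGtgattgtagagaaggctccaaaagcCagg
GABARAPL3: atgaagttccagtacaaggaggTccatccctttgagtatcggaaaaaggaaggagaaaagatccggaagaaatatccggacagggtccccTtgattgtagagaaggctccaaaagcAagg

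Over their full 378 coding bases, MAP1LC3B on chromosome 16 and MAP1LC3B2 on chromosome 12 differed at 2 positions (C30G and A338G, with the MAP1LC3B base first). Of the 50-base windows of the MAP1LC3B coding sequence, 78.4% occurred unchanged in that of MAP1LC3B2, and of the 151-base windows 68.9% did. GABARAPL1 on chromosome 12 and GABARAPL3, a processed pseudogene on chromosome 15, differed at 16 of 354 positions, with 10.2% of 50-base windows and 0% of 151-base windows shared. Both lengths are given because the study's methods name 50 sequencing cycles and the sample labels 151 bp. Between MAP1LC3A and MAP1LC3B 71.2% of aligned coding positions were identical, and between GABARAP and GABARAPL1 76.8% were. No 50-base window was common to MAP1LC3A and MAP1LC3B, or to GABARAP and GABARAPL1.

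After treatment with JIB-04, A673 cells showed a higher FPKM of most of these genes and a different balance among them. FPKM is relative to the mapped reads of a library, so the amount of RNA per cell was not measured. By limma on log2(FPKM + 0.5), with Benjamini-Hochberg adjustment over the 17460 genes tested, 8 of the 10 genes rose and 2 fell (MAP1LC3A and CALCOCO2) at an adjusted p under 0.05. Changes of this kind were common in these cells: 34.2% of all genes tested rose and 38% fell under the same rule. That balance depends on the scaling, since 7061 genes rose and 5424 fell after rescaling to TPM, 6487 and 6017 with the same sum over genes outside the mitochondrial genome, and 6329 and 6186 with median-ratio scaling, with 8 and 2 of the 10 genes in each case. At least 2-fold, 4 of the 10 genes rose (MAP1LC3B, OPTN, TAX1BP1 and GABARAPL1), where 13.1% of all genes did so. GABARAPL1 lay at that limit, with a log2 fold change of 0.95 to 1.06 when each library was left out in turn. In none of the 10 did the JIB-04 libraries overlap the vehicle libraries, which was also the case for 67.3% of all genes. The median log2 fold change was 0.73 over the 10 genes and -0.07 over all genes tested. An exact permutation test (two-sided) gave p = 0.0286 for each of the 10, the smallest that 4 against 4 libraries allow.

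**Figure D1:**
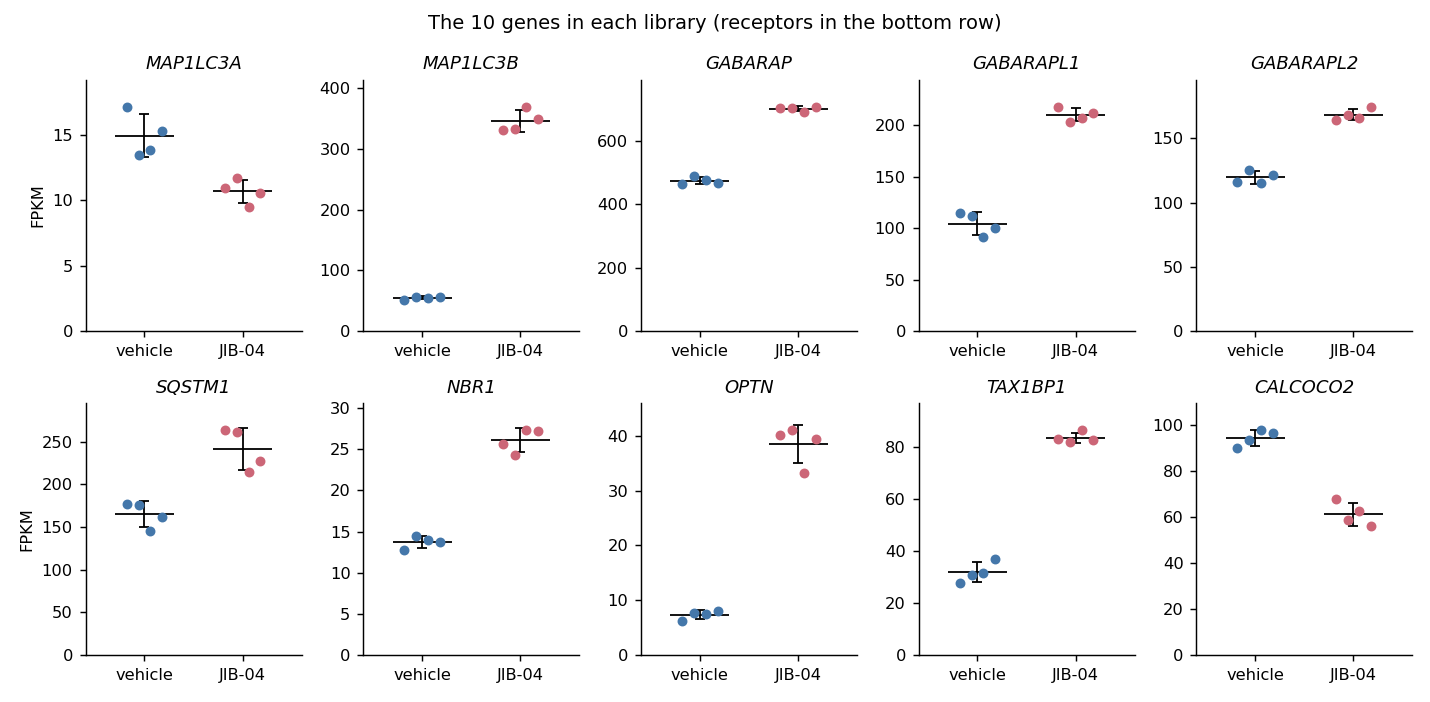
Expression (FPKM, axes from 0) of the 10 genes, with the 5 receptors in the bottom row, in the 4 vehicle libraries (blue) and the 4 JIB-04 libraries (red). Points are libraries, horizontal bars are means and error bars are SD. In every panel the 2 groups are separate, with MAP1LC3A and CALCOCO2 the panels in which JIB-04 lies below vehicle.

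MAP1LC3B, the LC3 protein most often used to mark autophagosomes, lies at chr16:87383995-87404779 on the plus strand. It was measured at 52.1, 56.7, 55.3 and 56.3 FPKM in the vehicle libraries and at 331, 333, 369 and 349 FPKM in the JIB-04 libraries. Each JIB-04 library was thus several times above each vehicle library, and the spread within either group was small against the gap. The mean was 6.27 times that in vehicle (log2 fold change 2.64, SE 0.05, limma adjusted p = 6.89e-10), which is above the log2 fold change of 98.2% of the genes tested. FBXO31, an F-box protein gene on the opposite strand, covers 2.82% of the exonic bases of MAP1LC3B and had means of 41.3 and 54.3 FPKM in vehicle and JIB-04.

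MAP1LC3A, a second LC3 gene, lies at chr20:34546854-34560345 on the plus strand and moved the opposite way. Its levels were 17.1, 13.5, 13.8 and 15.3 FPKM in vehicle, against 10.9, 11.7, 9.51 and 10.6 FPKM with JIB-04. The highest JIB-04 library lay below the lowest vehicle library, by a narrower margin than for MAP1LC3B. The mean with JIB-04 was 71.5% of that in vehicle (log2 fold change -0.46, SE 0.10, limma adjusted p = 0.00172). MAP1LC3C, a further LC3 gene, was listed at no more than 0.156 FPKM in any library and was not tested.

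GABARAP, first described as a binding partner of a GABA type A receptor subunit, lies at chr17:7240014-7242770 on the minus strand and was the most abundant of the 10 per length in both groups. It was measured at 465.5, 491, 477 and 467 FPKM in vehicle and at 705, 704, 691 and 709 FPKM with JIB-04. The groups were far apart, and with JIB-04 the 4 libraries lay closer to each other (SD 7.90 FPKM) than the vehicle libraries did (SD 11.9 FPKM). The mean was 1.48 times that in vehicle (log2 fold change 0.56, SE 0.03, limma adjusted p = 2.48e-07). AC120057.2, a gene that shares 30.5% of the exonic bases of GABARAP on the same strand, was listed at means of 0.507 and 0.000511 FPKM, and how the authors' counting shared out those bases is not stated. AC120057.3, on the opposite strand, covers 25.2% of them and had means of 0.0378 and 0.130 FPKM.

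GABARAPL1 lies at chr12:10212458-10223130 on the plus strand. Its level was 115, 112, 91.3 and 99.999 FPKM in vehicle, against 218, 203, 207 and 212 FPKM with JIB-04. Every JIB-04 library was well above the highest vehicle library, and vehicle replicate 3 was the lowest of the 8. The mean was 2.01 times that in vehicle (log2 fold change 1.01, SE 0.07, limma adjusted p = 1.36e-06). AC115676.1, on the opposite strand, covers 8.05% of the exonic bases of GABARAPL1 and had a mean of 0 FPKM in both groups.

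GABARAPL2, a protein also known from transport within the Golgi, lies at chr16:75566351-75577881 on the plus strand. It was measured at 116, 125, 115 and 122 FPKM in vehicle and at 165, 168, 166 and 175 FPKM with JIB-04. The rise was the smallest among the 8 genes that rose, with a mean 1.41 times that in vehicle and groups that did not overlap (log2 fold change 0.49, SE 0.04, limma adjusted p = 4.57e-06).

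The FPKM listed for the near copies rose as well. It reached a level near that of MAP1LC3B for MAP1LC3B2, and one well under that of GABARAPL1 for GABARAPL3. MAP1LC3B2 was measured at 49.1 ± 4.77 FPKM in vehicle and at 300.3 ± 5.64 FPKM with JIB-04 (mean ± SD over 4 libraries each, log2 fold change 2.61, limma adjusted p = 4.04e-09). It stood at 76.7% to 95.0% of the FPKM of MAP1LC3B in the vehicle libraries and at 81.1% to 91.3% in the JIB-04 libraries, so that the ratio of the copies overlapped between groups while both rose. GABARAPL3 was measured at 39.6 ± 3.58 and 86.0 ± 4.60 FPKM (log2 fold change 1.11, limma adjusted p = 7.21e-07), which was 35.3% to 42.0% of GABARAPL1 in vehicle and 39.2% to 43.8% with JIB-04. Over whole annotated transcripts, 4.82% of the 50-base windows of MAP1LC3B occurred unchanged in MAP1LC3B2, and 15.1% of those of MAP1LC3B2 in MAP1LC3B. At 151 bases these shares were 2.8% and 9.9%. Of GABARAPL1 windows, 0.73% at 50 bases and 0% at 151 bases occurred in GABARAPL3, and 11% and 0% the other way. How reads that match both copies were assigned is not stated. The levels of MAP1LC3B and MAP1LC3B2, and to a smaller extent those of GABARAPL1 and GABARAPL3, are therefore uncertain. The pseudogene MAP1LC3BP1 was listed at 1.28 ± 0.494 and 5.31 ± 0.401 FPKM (log2 fold change 1.76, limma adjusted p = 5.60e-05). This was 1.02% to 3.15% of MAP1LC3B in vehicle and 1.45% to 1.73% with JIB-04. Whether RNA of the copies rose, apart from reads of MAP1LC3B and GABARAPL1 assigned to them, was not tested.

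**Figure D2:**
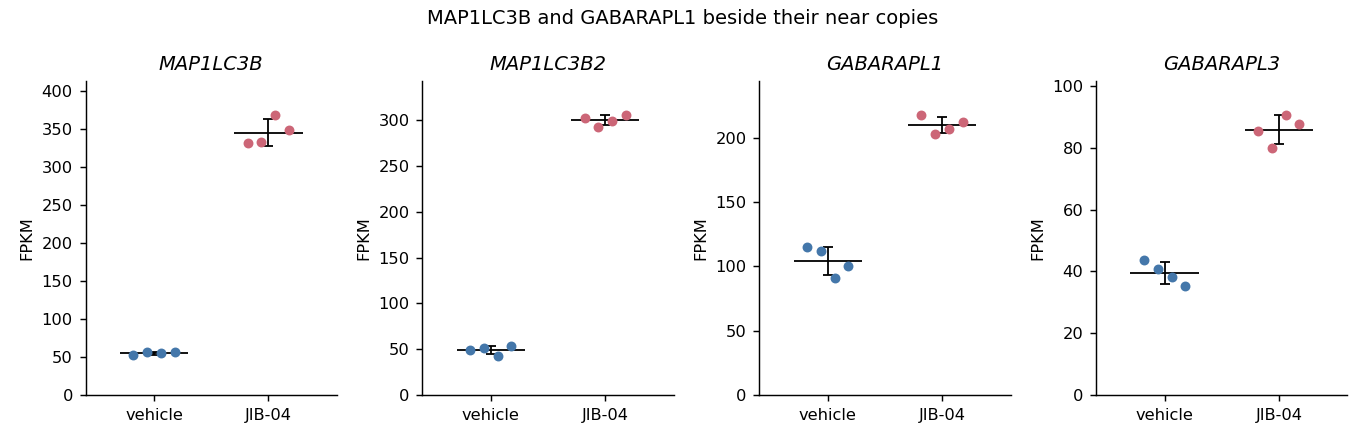
FPKM (axes from 0) of MAP1LC3B, its near copy MAP1LC3B2, GABARAPL1 and its near copy GABARAPL3 in the 4 vehicle (blue) and 4 JIB-04 (red) libraries, with means and SD. The FPKM listed for gene and copy rose together, to 300.3 for MAP1LC3B2 beside 346 for MAP1LC3B. For GABARAPL3 it rose to 86.0 beside 210.2 for GABARAPL1. How reads that match both copies were assigned is not stated.

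Whether 2 genes of like role moved by different amounts was tested on the difference of their log2 levels within each library, in which a factor common to all genes of a library largely cancels. Over 20 pairs, an exact permutation test (two-sided, Benjamini-Hochberg over the 20 pairs) found a change in 18, each at p = 0.0286 and adjusted p = 0.0317. That p is the smallest that 4 against 4 libraries allow, and the pairs share 10 genes, so they are not independent. Since the groups did not overlap for 67.3% of all genes tested, changes between genes were common here. The share of changed pairs among other genes was not tested. MAP1LC3B went from below GABARAPL2 (difference in log2 level -1.11 ± 0.0399, SD, n = 4) to above it (1.03 ± 0.0786), and likewise from -0.91 to 0.71 against GABARAPL1. It stayed below GABARAP, with a difference that went from -3.10 to -1.02. MAP1LC3A and MAP1LC3B moved furthest apart, their difference changing by -3.10 from -1.86 to -4.96. GABARAPL1 went from a difference of -0.20 to one of 0.32 relative to GABARAPL2. The pair GABARAP and GABARAPL2 differed by 1.99 in vehicle and by 2.06 with JIB-04, a change of 0.07 that did not pass (exact permutation p = 0.0571). After quantile scaling, which is not a common factor, that change was 0.22 and passed (exact permutation test, adjusted p = 0.0301), which made 19 of 20 pairs, whereas TPM, the same sum outside the mitochondrial genome and median-ratio scaling each left 18.

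SQSTM1 encodes p62, a receptor that binds ubiquitin, forms condensates with its cargo and also binds KEAP1. It lies at chr5:179806398-179838078 on the plus strand and was measured at 177, 176, 145 and 161 FPKM in vehicle and at 263, 261, 214 and 228 FPKM with JIB-04. The lowest JIB-04 library was above the highest vehicle library, although the libraries of each group were spread more widely than those of GABARAP. The mean was 1.46 times that in vehicle (log2 fold change 0.55, SE 0.09, limma adjusted p = 0.00033). MRNIP, a gene on the opposite strand that covers 20.7% of the exonic bases of SQSTM1, had means of 18.4 and 13.5 FPKM in vehicle and JIB-04, and MGAT4B, also on the opposite strand, covers 1.37% and had means of 106 and 79.7 FPKM. Whether the counting used strand is not stated. The pseudogene SQSTM1P1 was listed at 0 in all 8 libraries.

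NBR1, a receptor related to p62 in domain layout, lies at chr17:43170481-43211689 on the plus strand. Its levels were 12.7, 14.5, 14.0 and 13.8 FPKM in vehicle, against 25.7, 24.3, 27.3 and 27.2 FPKM with JIB-04. Both groups were tight and well apart, with a mean 1.90 times that in vehicle (log2 fold change 0.90, SE 0.07, limma adjusted p = 1.50e-06). The difference in log2 level between SQSTM1 and NBR1 was 3.54 ± 0.170 in vehicle and 3.18 ± 0.220 with JIB-04 (SD, n = 4), a change of -0.36 that did not pass (exact permutation p = 0.0571). AC060780.1, on the opposite strand, covers 5.51% of the exonic bases of NBR1 and had means of 1.38 and 2.13 FPKM in vehicle and JIB-04.

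OPTN, a receptor phosphorylated by the kinase TBK1 and used in the clearance of bacteria and mitochondria, lies at chr10:13099449-13138308 on the plus strand. It was the least abundant of the 10 in vehicle, at 6.17, 7.74, 7.45 and 7.94 FPKM, and stood at 40.1, 41.0, 33.2 and 39.5 FPKM with JIB-04. Each JIB-04 library was several times above each vehicle library, with JIB-04 replicate 3 the lowest of its group. The mean was 5.25 times that in vehicle (log2 fold change 2.32, SE 0.10, limma adjusted p = 5.35e-08), above the log2 fold change of 97.3% of the genes tested. CCDC3, which covers 2.86% of the exonic bases of OPTN on the opposite strand, had means of 4.78 and 1.77 FPKM.

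TAX1BP1, a receptor with ubiquitin-binding zinc fingers, lies at chr7:27739331-27844564 on the plus strand. It was measured at 27.8, 31.0, 31.6 and 37.1 FPKM in vehicle and at 83.4, 81.9, 86.6 and 82.8 FPKM with JIB-04. The groups were far apart, and the vehicle libraries were the more spread of the 2 groups. The mean was 2.63 times that in vehicle (log2 fold change 1.39, SE 0.08, limma adjusted p = 3.55e-07). JAZF1, on the opposite strand, covers 4.53% of the exonic bases of TAX1BP1 and had means of 3.87 and 3.49 FPKM in vehicle and JIB-04. AC005091.1, also on the opposite strand, covers 1.91% and had means of 0.012 and 0.025 FPKM.

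CALCOCO2 encodes NDP52, a receptor related in sequence to TAX1BP1 that recruits autophagy to damaged, galectin-8-coated vacuoles. It lies at chr17:48830988-48866522 on the plus strand and was the receptor that fell, from 89.7, 93.2, 97.5 and 96.6 FPKM in vehicle to 67.5, 58.4, 62.5 and 56.1 FPKM with JIB-04. Every JIB-04 library lay below every vehicle library. The mean with JIB-04 was 64.9% of that in vehicle (log2 fold change -0.62, SE 0.06, limma adjusted p = 1.50e-05). TAX1BP1 and CALCOCO2 exchanged places, the difference in their log2 levels going from -1.56 ± 0.131 to 0.45 ± 0.107 (SD, n = 4, exact permutation p = 0.0286, adjusted p = 0.0317).

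Receptor RNA summed to 312 ± 11.4 FPKM in vehicle, against 451 ± 26.7 FPKM with JIB-04 (mean ± SD, n = 4 per group), a ratio of 1.44. SQSTM1 made up the largest share in both groups, at 52.8% ± 3.35 and 53.5% ± 2.43, and its libraries overlapped. CALCOCO2 went from 30.2% ± 1.98 to 13.6% ± 1.02, TAX1BP1 from 10.2% ± 1.24 to 18.6% ± 1.44 and OPTN from 2.35% ± 0.260 to 8.53% ± 0.545. Among the 10 pairs of receptors, OPTN and CALCOCO2 changed most against each other, from -3.60 to -0.66 in the difference of log2 levels, a change of 2.94. OPTN also went from below NBR1 to above it, the difference NBR1 minus OPTN going from 0.87 to -0.55. Leaving out 1 library, the exact test of a pair cannot go below p = 0.0571, and the change of each of the 20 pairs kept its sign.

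**Figure D3:**
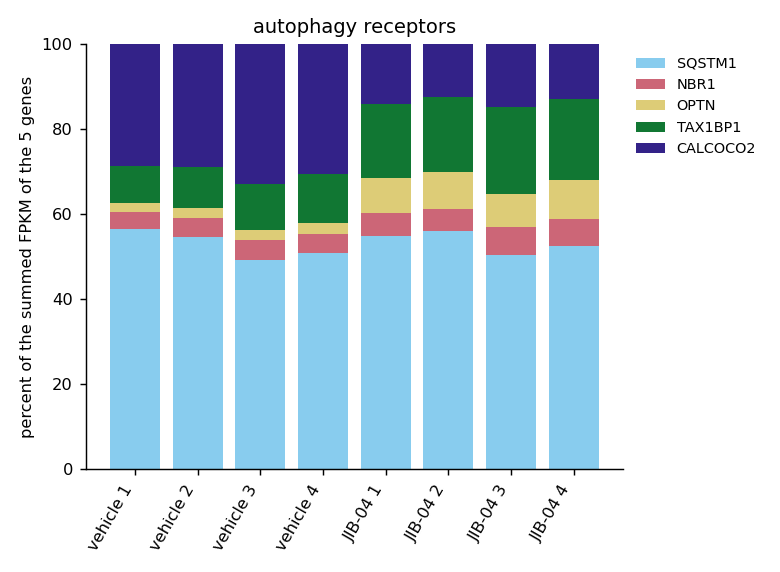
Share (percent, axis from 0 to 100) of each of the 5 receptors in their summed FPKM, with 1 bar for each library. CALCOCO2 went from 30.2% to 13.6% of the sum and OPTN from 2.35% to 8.53%.

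**Figure D4:**
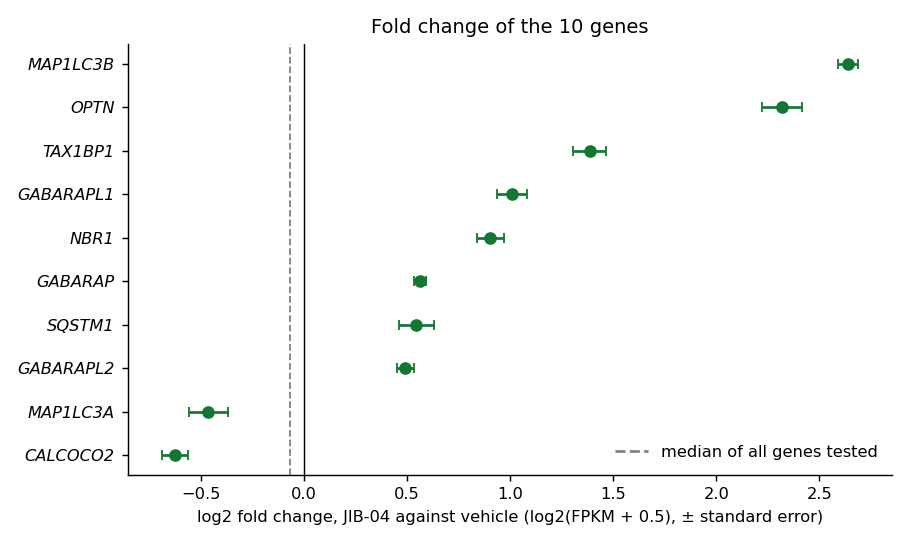
Log2 fold change of JIB-04 against vehicle on the log2(FPKM + 0.5) scale, with standard errors, for the 10 genes, with the median of all 17460 genes tested as a dashed line at -0.07. MAP1LC3B (2.64) and OPTN (2.32) lie furthest to the right, and MAP1LC3A (-0.46) and CALCOCO2 (-0.62) lie to the left of 0.

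By level per length, the order in vehicle was GABARAP, SQSTM1, GABARAPL2, GABARAPL1, CALCOCO2, MAP1LC3B, TAX1BP1, MAP1LC3A, NBR1 and OPTN. Neighbours in that order did not overlap in any library except GABARAPL1 with CALCOCO2 and MAP1LC3A with NBR1. With JIB-04 the order was GABARAP, MAP1LC3B, SQSTM1, GABARAPL1, GABARAPL2, TAX1BP1, CALCOCO2, OPTN, NBR1 and MAP1LC3A, and SQSTM1 and GABARAPL1 were the neighbours whose libraries overlapped. MAP1LC3B thus went from place 6 to place 2, at 55.1 and 346 FPKM, and OPTN from place 10 to place 8, at 7.32 and 38.5 FPKM. MAP1LC3A took the last place with JIB-04, at 10.7 FPKM.

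To show what lies upstream of the 2 genes that rose most and of the receptor that fell, the 250 bases before a RefSeq start site (GRCh38.p14) are printed in lower case. Capitals mark matches to GCGTG and TGACNNNGC in MAP1LC3B and to ACGTG and TGACNNNGC in CALCOCO2, on either strand, and in OPTN nothing matched.
MAP1LC3B: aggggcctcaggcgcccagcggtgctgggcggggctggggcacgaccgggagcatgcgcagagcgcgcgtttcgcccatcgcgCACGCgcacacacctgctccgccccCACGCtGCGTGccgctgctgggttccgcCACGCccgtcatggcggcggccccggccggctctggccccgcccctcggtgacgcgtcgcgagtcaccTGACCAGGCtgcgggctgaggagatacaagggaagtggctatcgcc
OPTN: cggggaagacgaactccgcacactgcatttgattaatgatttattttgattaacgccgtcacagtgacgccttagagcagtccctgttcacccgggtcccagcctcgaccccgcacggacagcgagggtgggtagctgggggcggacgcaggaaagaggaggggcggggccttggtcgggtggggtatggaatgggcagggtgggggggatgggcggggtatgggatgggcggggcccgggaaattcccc
CALCOCO2: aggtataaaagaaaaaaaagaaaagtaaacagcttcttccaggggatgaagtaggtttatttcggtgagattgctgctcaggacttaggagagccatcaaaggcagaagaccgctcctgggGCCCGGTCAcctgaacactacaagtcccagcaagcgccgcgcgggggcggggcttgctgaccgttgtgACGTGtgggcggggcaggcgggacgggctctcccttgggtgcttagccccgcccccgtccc

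These stretches are chr16:87392086-87392335, chr10:13099832-13100081 and chr17:48830785-48831034, each on the plus strand. RefSeq start sites were found for 9 of the 10 genes, in 14 windows running from 250 bases before to 50 bases after a start. No window was found for MAP1LC3A, which also fell. OPTN had a further window, chr10:13099913-13100212, that is not printed and held none of the motifs below. Each window was searched on both strands for 8 motifs: CACGTG and GTCACGTG, which are bound by TFEB and related factors, ACGTG and GCGTG, the cores of hypoxia and aryl hydrocarbon receptor elements, TGACNNNGC for NRF2, TGATGNAAT and TGATGCAA for ATF4 and C/EBP factors, and TGANTCA for AP-1. These overlap in part, since ACGTG lies within CACGTG, and CACGTG within GTCACGTG. Of 35116 windows over all genes, 36.5% held GCGTG, 21.4% ACGTG, 13.4% TGACNNNGC, 7.71% TGANTCA, 7.26% CACGTG, 2.40% GTCACGTG, 0.991% TGATGNAAT and 0.866% TGATGCAA. The MAP1LC3B window held GCGTG 4 times, at 167, 142, 136 and 114 bases before the start, and at least 4 matches were present in 1.64% of all windows. That limit of 4 equals the count in this window and was applied to this motif alone. The MAP1LC3B window was 75.7% G or C, and the share over all windows was not matched for this. The same window also held TGACNNNGC at 46 bases before the start. The CALCOCO2 window held TGACNNNGC at 129 and ACGTG at 61 bases before the start. GCGTG was found in windows of TAX1BP1, GABARAP, GABARAPL2 and NBR1 as well, ACGTG in that of GABARAPL2, and 7 of the 14 windows held none of the 8 motifs. A match is a description of the letters only, and no binding was measured in these samples.

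The enzymes that attach LC3 and GABARAP proteins to lipid, and the ATG4 proteases that prepare and release them, moved in both directions. Of 11 such genes, 6 rose, 3 fell and 2 did not pass the test, with a median log2 fold change of 0.38. Over all genes tested 34.2% rose and 38% fell, the shares to set beside the counts of this list and of the lists below. ATG16L1, part of the complex that sets where lipidation takes place, stood at 23.3 ± 0.723 FPKM in vehicle, against 60.6 FPKM with JIB-04. ATG3, the E2-like enzyme that transfers the proteins to lipid, rose by 0.75 on the log2 scale (SE 0.05, limma adjusted p = 1.35e-06), and ATG10, the E2-like enzyme for ATG12, fell from 14.4 to 5.94 FPKM (log2 fold change -1.21, SE 0.09, limma adjusted p = 1.83e-06). ATG7, the E1-like enzyme that activates all of these proteins, was at 18.9 and 16.3 FPKM (log2 fold change -0.20, limma adjusted p = 0.120), and ATG4C at 17.8 and 14.2 FPKM (log2 fold change -0.30, limma adjusted p = 0.109), neither of which passed.

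Of 17 other selective autophagy receptors, 16 were tested, of which 9 rose, 5 fell and 2 did not pass, with a median log2 fold change of 0.23. BNIP3, a mitophagy receptor induced by hypoxia, rose from 23.2 to 111.5 FPKM (log2 fold change 2.24, SE 0.06, limma adjusted p = 4.22e-09). CALCOCO1, a paralogue of CALCOCO2 and TAX1BP1 that serves as a receptor for endoplasmic reticulum and Golgi, rose from 15.7 to 55.9 FPKM (log2 fold change 1.80, SE 0.05, limma adjusted p = 9.37e-09), so that within this group of related receptors CALCOCO2 was the member that fell. PHB2, an inner mitochondrial membrane prohibitin that acts as a mitophagy receptor, fell from 611 to 243 FPKM (log2 fold change -1.33, SE 0.06, limma adjusted p = 5.99e-08). FUNDC1, a mitophagy receptor of the outer mitochondrial membrane, was at 94.9 FPKM in both groups (log2 fold change 0.0030, limma adjusted p = 0.965), and CCPG1, a receptor of the endoplasmic reticulum, was at 11.6 and 13.2 FPKM (limma adjusted p = 0.421). Of the 5 that fell, RTN3 (log2 fold change -0.12) and TEX264 (-0.17), named after their values were seen, each lost the call under most alternatives. RTN3 stood at 0.04 after rescaling to TPM. Where both lost the call, 3 were left. STBD1 was not analysed here.

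Among 13 partners of the receptors, 12 were tested, of which 4 rose, 5 fell and 3 did not pass, with a median log2 fold change of 0.09. KEAP1, the ubiquitin ligase adaptor that p62 binds, fell from 169 to 82.0 FPKM (log2 fold change -1.03, SE 0.06, limma adjusted p = 2.77e-07). LGALS8, the galectin-8 that NDP52 recognises on damaged vacuoles, rose from 30.3 to 77.2 FPKM (log2 fold change 1.34, SE 0.08, limma adjusted p = 3.28e-07), opposite to CALCOCO2. MAP2K5, a kinase whose PB1 domain interacts with that of p62, fell from 36.4 to 15.1 FPKM (log2 fold change -1.25, SE 0.08, limma adjusted p = 5.49e-07). TBK1, the kinase of OPTN, fell from 19.5 to 13.6 FPKM (log2 fold change -0.52, SE 0.13, limma adjusted p = 0.00514), and was named after its values were seen. AZI2 and TANK, adaptors of TBK1, had log2 fold changes of 0.21 and -0.04, and PRKCZ, an atypical protein kinase C, had one of 0.34, none of which passed (limma adjusted p = 0.0960, 0.726 and 0.124). MYO6, a motor that binds OPTN and NDP52, was at means of 1.03 and 0.702 FPKM and was not tested.

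Of 14 genes for tethering and fusing autophagosomes with lysosomes, 13 were tested, of which 7 rose, 4 fell and 2 did not pass, with a median log2 fold change of 0.43. RAB7A, the GTPase of late endosomes, rose from 265 to 880 FPKM (log2 fold change 1.73, SE 0.04, limma adjusted p = 3.17e-09). EPG5, a tether that binds LC3 and RAB7, rose from 9.49 to 70.9 FPKM (log2 fold change 2.84, SE 0.07, limma adjusted p = 4.22e-09), and VPS11, a core subunit of the HOPS tether, from 23.2 to 88.5 FPKM (log2 fold change 1.91, SE 0.08, limma adjusted p = 4.36e-08). The 4 that fell were STX17 (log2 fold change -0.66), TECPR1 (-0.81), VPS16 (-0.61) and VPS33A (-0.43), named after their values were seen. SNAP29, a fusion SNARE, and VPS39, a HOPS subunit, had log2 fold changes of 0.13 and -0.03 and did not pass (limma adjusted p = 0.0549 and 0.699). VAMP8, the lysosomal SNARE of the pathway, was at means of 0.0871 and 0.565 FPKM and was not tested.

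**Figure D5:**
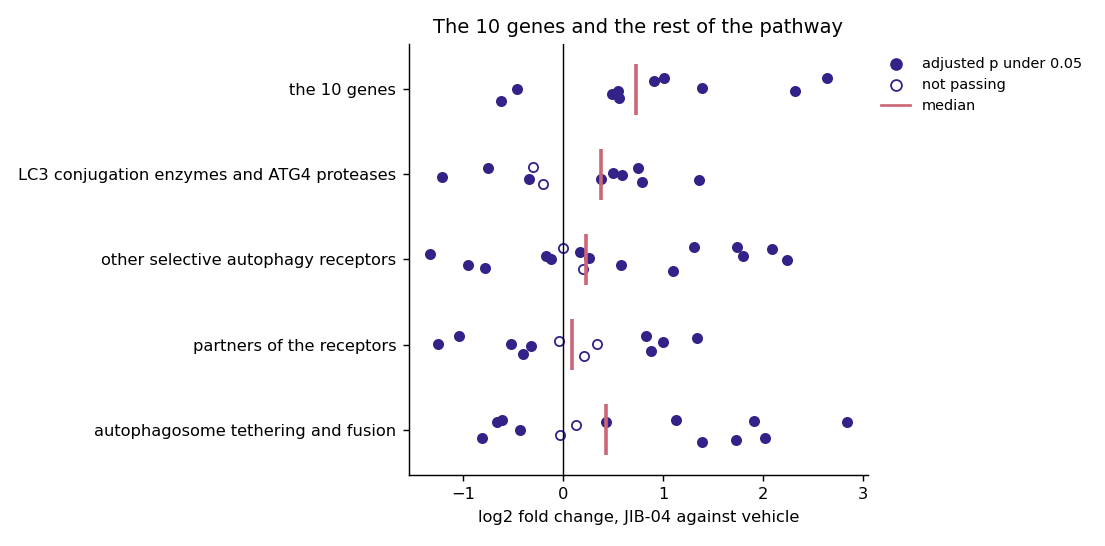
Log2 fold change of JIB-04 against vehicle for the 10 genes and the tested genes of the 4 lists around them, with 1 point for each gene (filled, limma adjusted p under 0.05, open, not passing) and a red line at each median. Vertical scatter within a row has no meaning. All 5 rows hold genes on both sides of 0, with medians of 0.73, 0.38, 0.23, 0.09 and 0.43 from top to bottom.

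The genes whose log2(FPKM + 0.5) followed MAP1LC3B most closely over the 8 libraries, among 12586 genes averaging 5 FPKM or more, were MTMR9, a myotubularin-related protein (Pearson r = 0.9998), SAT1, an enzyme of polyamine breakdown (r = 0.9997), and CREM, a cAMP-responsive transcription factor (r = 0.9997). SAT1 went from 27.4 to 434 FPKM and MTMR9 from 10.2 to 24.0 FPKM, so that genes with folds of unlike size shared the pattern. CALCOCO2 was followed most closely by LDB2, a LIM domain-binding cofactor (r = 0.9946), NXPH2, a neurexophilin (r = 0.9934), and ETHE1, a mitochondrial enzyme of sulfide breakdown (r = 0.9926). These coefficients describe 8 libraries in 2 groups and rest mainly on the difference between the groups.

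Under every scaling tried, the direction and the call of all 10 genes were kept. Rescaling FPKM to TPM raised the median over all genes by 0.15 on the log2 scale, and relative to it MAP1LC3A and CALCOCO2 remained below and the other 8 genes above. With libraries set to the same sum over genes outside the mitochondrial genome, all 10 calls were also the same. Of the genes of the 4 lists named as not passing, FUNDC1, AZI2, PRKCZ, SNAP29 and VPS39 passed as higher after rescaling to TPM. SNAP29 also passed under every other scaling, with the linear model of FPKM and without JIB-04 replicate 3. AZI2 also passed with the same sum outside the mitochondrial genome, and with the replicate block. Without vehicle replicate 2, AZI2 and PRKCZ passed. ATG4C and ATG7 passed as lower without vehicle replicate 1, and ATG7 also with the replicate block and without JIB-04 replicate 2. CCPG1 passed as higher without vehicle replicate 4. Fold changes on the log2(FPKM + 0.5) scale understate the change of genes at low levels, which here bears mainly on OPTN in vehicle.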

How the data were processed

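Gene expression was measured by RNA-seq of directional mRNA libraries from A673 cells. With GSNAP the authors mapped single-end reads to GRCh38, and with Cufflinks they derived FPKM per Ensembl gene. In the main comparison these deposited FPKM were not rescaled. The 66095 entries hold 65975 identifiers, of which 117 had more than 1 entry and were summed, and 13 genes with a placeholder value were left out, none of them described here. Groups were taken from the sample labels. Genes averaging 1 FPKM or more were compared on log2(FPKM + 0.5) with limma 3.58.1 in R 4.3.3 (lmFit, eBayes with a variance trend) and Benjamini-Hochberg adjustment at 0.05. Single genes and pairs were also compared by exact permutation tests with scipy 1.17.1. The fit was also run on simulated data in which far fewer genes changed than were called here. That run does not bear on the counts of genes called. Figures and sequence searches used Python 3.11.15, matplotlib 3.10.9 and Biopython 1.88.

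The members and the lists were chosen with earlier results of these data known. The genes named are the 10 members, their copies by symbol, the 3 genes with the smallest adjusted p and those not passing in each list, and the 3 genes most like MAP1LC3B and CALCOCO2, the extremes by log2 fold change. Cell type markers, genes overlapping a member in the annotation, and TBK1, RTN3, TEX264, STX17, TECPR1, VPS16 and VPS33A are named outside this rule. Depth is unknown from FPKM, so the spread among libraries gives the precision. Alternatives were pseudocounts of 0.1 and 1, other filters, other scalings, a linear model of FPKM, limma without the trend, a replicate block and leaving out each library. Summing near copies, leaving out JIB-04 replicates 3 and 4 together, and the scalings of pair differences were chosen after seeing the data.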

Additional observations from a re-analysis of the deposited data

How the results depend on the processing

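All 10 genes kept their direction and their side of the threshold under every alternative run, with log2 fold changes of 2.58 to 2.80 for MAP1LC3B, -0.51 to -0.30 for MAP1LC3A, 2.24 to 2.45 for OPTN and -0.67 to -0.46 for CALCOCO2, and a highest limma adjusted p of 0.0223, for MAP1LC3A. The count of other selective autophagy receptors that fell went from 5 to 3 after rescaling to TPM, with the same sum over genes outside the mitochondrial genome, with median-ratio scaling, with the replicate block, and without JIB-04 replicates 3 and 4, and was between 3 and 5 when each library was left out in turn. RTN3 and TEX264 are the genes that lost the call after rescaling to TPM, where RTN3 stood at a log2 fold change of 0.04. The count of LC3 conjugation and ATG4 genes that fell was between 3 and 5 when each library was left out, and was 5 without vehicle replicate 1, where ATG4C and ATG7 passed. Replicate numbers are shared by the groups in the labels, but deviations of same-numbered libraries were nearly uncorrelated (r = 0.0823, -0.058, 0.0256 and -0.00238), so the numbers were not taken as pairs. With the replicate block, 5900 genes rose and 6618 fell, beside 5964 and 6640 without it, and 8 and 2 of the 10 genes. Without a filter on level, 34783 genes were tested in place of 17460, of which 8223 rose and 7293 fell. Depth is unknown, so no limit on low levels could be set, and the reads shared with near copies leave the levels of MAP1LC3B and GABARAPL1 uncertain.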
